A study of Saccharomyces cerevisiae with 48 samples.

Results

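The last stretch of S-phase was followed in the 16 samples collected at 40, 45, 50 and 60 min after release from G1, out of 44 timepoint samples with a copy number profile and 48 samples in the series. All 16 come from 4 strains of budding yeast, and the samples were chosen by timepoint alone. Budding yeast starts replication at many defined origins (autonomously replicating sequences, ARS), each of which sends out a pair of forks, and the DNA between neighboring origins is finished where forks that converge from either side meet. The last DNA to be copied is therefore often far from an origin, and chromosome ends are known to replicate late while centromeres are known to replicate early. Initiation depends on factors that are scarce relative to the number of origins. Sld2, Sld3, Dpb11, Dbf4, Cdc45 and Sld7 are such factors, and their joint over-expression is abbreviated to SSDDCS.

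Every strain was haploid W303 MATa with can1-100, ade2-1, trp1-1, ura3-1 and the leu2-3, 112 and his3-11, 15 markers, carried the rad5-535 allele of W303, and lacked SML1, which encodes an inhibitor of ribonucleotide reductase. The 2 SSDDCS strains (sml1Δ::HphNT) carried integrated copies of the 6 genes under the galactose-inducible PGAL1-10 promoter at leu2, his3 and trp1. One of them also lacked the origins ARS1008 and ARS1009 beside the meiotic kinase gene IME2 on chromosome X (the SSDDCS ARS1008/ARS1009 strain), and the other lacked ARS816 and ARS818 beside the meiotic transcription factor gene NDT80 on chromosome VIII (the SSDDCS ARS816/ARS818 strain). The 2 sml1Δ strains (sml1Δ::URA3) had the same origin deletions without SSDDCS and are called the sml1Δ ARS1008/ARS1009 strain and the sml1Δ ARS816/ARS818 strain. All cultures were grown in raffinose, arrested in G1, given galactose during the arrest and released into S-phase in galactose, so the sml1Δ strains met the same sugar. Each strain gave 1 time course and 1 G1 sample. The 2 strains of a status are different strains rather than repeat cultures of one, so the p-values below measure the spread between strains. In the tests of single bins and windows that spread is largely pooled over bins. SSDDCS status and the timing of a particular culture and release cannot be told apart beyond that spread.

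Each sample holds a ratio for 1-kb bins of the sacCer3 genome, with 11337 bins present in at least 1 late sample and 11299 in all 16. The authors set the reads of a timepoint against the G1 reads from that strain and scaled the quotient to a bulk DNA value from flow cytometry. At 40 min the bulk value was 1.94 and 1.95 in the SSDDCS strains, against 1.9 and 1.92 in the sml1Δ strains, and at 60 min it was 1.99 and 2.0 in SSDDCS, against 1.99 in both sml1Δ strains. Dividing the ratio by the bulk value gives a relative copy number with a mean near 1, in which a value of 1 stands for the average of that sample and a lower value for a bin that lags behind the average. The ratio is an average over the culture, so a locus that is uncopied in a few cells cannot be told apart from a locus that is copied later in all of them. Values were smoothed with a running mean over 5 bins where loci are described. A bin with a running mean under 0.90 is called low, and a low locus is a run of at least 3 neighboring low bins. At the edge of this threshold the highest low bin of the sml1Δ mean at 40 min had 0.8999 and the lowest bin above it 0.9002.

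Deletion of an origin makes the DNA around it late by design. The region around IME2 (chrX:113749-298981, 179 bins) and the region around NDT80 (chrVIII:297179-447714, 151 bins) were therefore left out of the spread, the low bins, the low loci and the position classes, and are described on their own. The tests of single bins and of 5-kb windows kept both regions. At IME2 and at NDT80 the strains labelled as lacking the nearby origins were the ones with reduced copy number at 40 min, as given below. The library of the sml1Δ ARS816/ARS818 strain at 40 min stood apart from all others, and results that rest on it are given for each strain.

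Sequence around the matches to the ARS consensus sequence is shown for 4 places: the deleted origin ARS1009, the intact origin ARS1327 that borders the gap of the widest late locus on chromosome XIII, and the matches that lie inside the widest late loci of chromosomes XIII and XII. Whether these matches affect the late profile was not tested. The consensus is the T-rich core that the origin recognition complex binds at yeast origins. All were read from the RefSeq R64 (sacCer3) genome, plus strand, 5′ to 3′, with the match in capitals.
ARS1009, chrX:228771-228861, match on the plus strand: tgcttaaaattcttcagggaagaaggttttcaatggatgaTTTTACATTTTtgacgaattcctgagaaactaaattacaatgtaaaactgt
ARS1327, chrXIII:758224-758471, match on the minus strand: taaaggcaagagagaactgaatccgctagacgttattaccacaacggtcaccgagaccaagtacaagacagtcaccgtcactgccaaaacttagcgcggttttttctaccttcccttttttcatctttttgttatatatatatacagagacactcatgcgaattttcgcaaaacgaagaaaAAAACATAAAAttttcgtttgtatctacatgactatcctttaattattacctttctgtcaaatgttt
chrXIII:713851-713941, inside the late locus, match on the minus strand: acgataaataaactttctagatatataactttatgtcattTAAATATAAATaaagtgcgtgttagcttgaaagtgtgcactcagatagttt
chrXII:849222-849312, inside the late locus, match on the minus strand: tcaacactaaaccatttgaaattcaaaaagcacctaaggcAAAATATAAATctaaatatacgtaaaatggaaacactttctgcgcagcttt
ARS1009 and ARS1327 are annotated origins, and the other 2 matches lie in no annotated origin. The XIII match is 7605 bases from the center of the lowest bin of its locus and the XII match 1766 bases from it. A match is only a match of letters. Of all 11337 bins 698 (6.16%) hold one on either strand, and of the 128 bins in the late loci of the sml1Δ strains described below 8 (6.25%) do, a share near that of all bins. Of the 352 annotated origins 124 (35.2%) hold a match. The whole of ARS1009 holds 2 matches, ARS1008 none.

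The spread of the profile was used as a readout of completion, because the profile of a fully copied genome is flat apart from noise. It also holds the noise of the sample. The SD over bins of the running mean, outside the target regions, was 0.0293, 0.0254, 0.0285 and 0.0232 at 40, 45, 50 and 60 min in the SSDDCS ARS1008/ARS1009 strain and 0.0295, 0.0239, 0.0280 and 0.0233 in the SSDDCS ARS816/ARS818 strain. In the sml1Δ ARS1008/ARS1009 strain it was 0.0370, 0.0295, 0.0286 and 0.0266, and in the sml1Δ ARS816/ARS818 strain 0.0637, 0.0430, 0.0371 and 0.0278. From 45 to 50 min the spread rose in both SSDDCS strains while their bulk values also rose, from 1.954 to 1.98 and from 1.98 to 1.99. Noise between neighboring bins, given below, was higher in them at 50 min, and its part was not tested. At each time both SSDDCS strains had a smaller spread than both sml1Δ strains, with p = 0.333 in the exact permutation test over the 4 strains (two-sided), which is the smallest p that 2 against 2 allow. At 50 min this order rested on 0.0285 in the SSDDCS ARS1008/ARS1009 strain, against 0.0286 in the sml1Δ ARS1008/ARS1009 strain. The same order was present at 5 min, soon after release, with SDs of 0.0245 and 0.0229 in the SSDDCS strains and 0.0298 and 0.0268 in the sml1Δ strains (exact permutation p = 0.333, two-sided). At 60 min the spread was under the strain's own 5 min value in both ARS1008/ARS1009 strains and slightly above it in both ARS816/ARS818 strains. At 40 min all 4 strains were above their own 5 min value, and the sml1Δ ARS816/ARS818 strain was the farthest above it.

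The number of low bins followed the same pattern. Outside the target regions the SSDDCS ARS1008/ARS1009 strain had 17, 1, 1 and 0 low bins at 40, 45, 50 and 60 min, and the SSDDCS ARS816/ARS818 strain had 16, 0, 1 and 0. The sml1Δ ARS1008/ARS1009 strain had 57, 8, 5 and 1, and the sml1Δ ARS816/ARS818 strain 642, 110, 36 and 0. The groups did not overlap at 40, 45 or 50 min (exact permutation p = 0.333, two-sided, at each), and at 60 min they did. The mean of 349.5 low bins for the sml1Δ strains at 40 min thus rests on 1 strain: without the sml1Δ ARS816/ARS818 strain it is 57, against 16.5 for SSDDCS. In low loci the counts at 40 min were 3 and 2 in the SSDDCS strains and 10 and 63 in the sml1Δ strains. At 45 min they were 0 and 0 in SSDDCS against 0 and 17 in sml1Δ, and at 50 min 0 and 0 against 1 and 4. No strain had a low locus outside the target regions at 60 min.

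**Figure D1:**
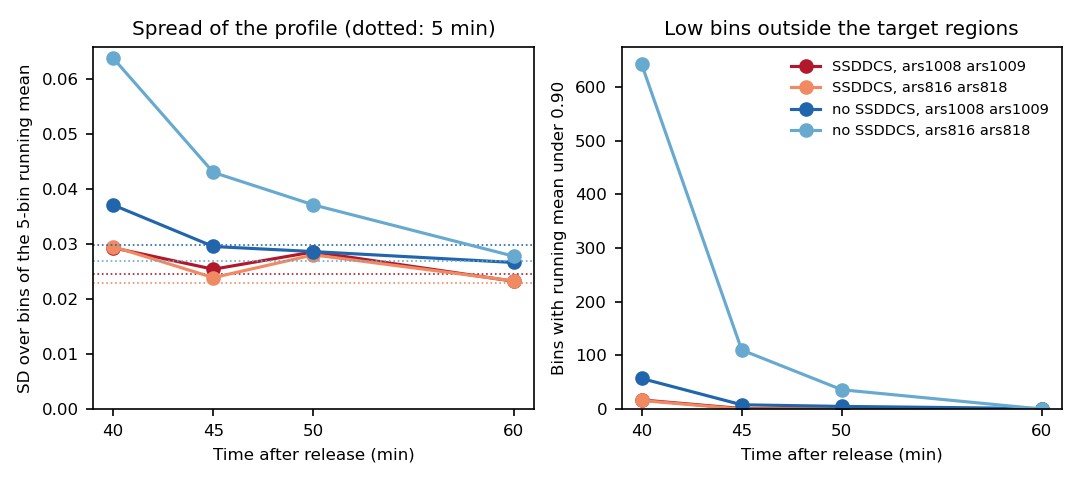
Left, SD over 1-kb bins of the 5-bin running mean of relative copy number against minutes after release, with the 5 min value of each strain as a dotted line; right, number of bins with a running mean under 0.90. Points are single samples, 1 per strain and time, outside the target regions. The sml1Δ ARS816/ARS818 strain (no SSDDCS) starts at 642 low bins at 40 min while the SSDDCS strains start at 17 and 16, and all strains reach 0 or 1 at 60 min.

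Where the low bins lay in the genome was set out by the distance to the nearest annotated origin. At 40 min bins over 20 kb from an origin (2525 bins, target regions left out) averaged 0.984 and 0.982 in the SSDDCS ARS1008/ARS1009 and ARS816/ARS818 strains, against 0.991 and 0.962 in the sml1Δ ARS1008/ARS1009 and ARS816/ARS818 strains. The statuses overlapped for origin-distal DNA as a class (difference 0.00626, exact permutation p = 1, two-sided). Within the ARS1008/ARS1009 pair of strains SSDDCS was the lower one, by -0.00687, and within the ARS816/ARS818 pair it was the higher one, by 0.0194. The share of these bins that were low was 0.635% and 0.557% in SSDDCS, against 1.47% and 19.2% in sml1Δ. In steps of 5 kb the mean at 40 min was above 1 within 10 kb of an origin and below 1 beyond 15 kb in all 4 strains, and 35 to 40 kb from an origin it was 0.974 and 0.973 in SSDDCS, against 0.976 and 0.936 in sml1Δ. The contrast between near and distal steps was widest in the sml1Δ ARS816/ARS818 strain. Beyond 40 kb the mean was 0.991 and 0.989 in SSDDCS, against 0.991 and 0.975 in sml1Δ, higher than at 35 to 40 kb in each strain. At 60 min the step from 35 to 40 kb read 0.994 and 1.00 in SSDDCS, against 0.999 and 0.995 in sml1Δ.

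**Figure D2:**
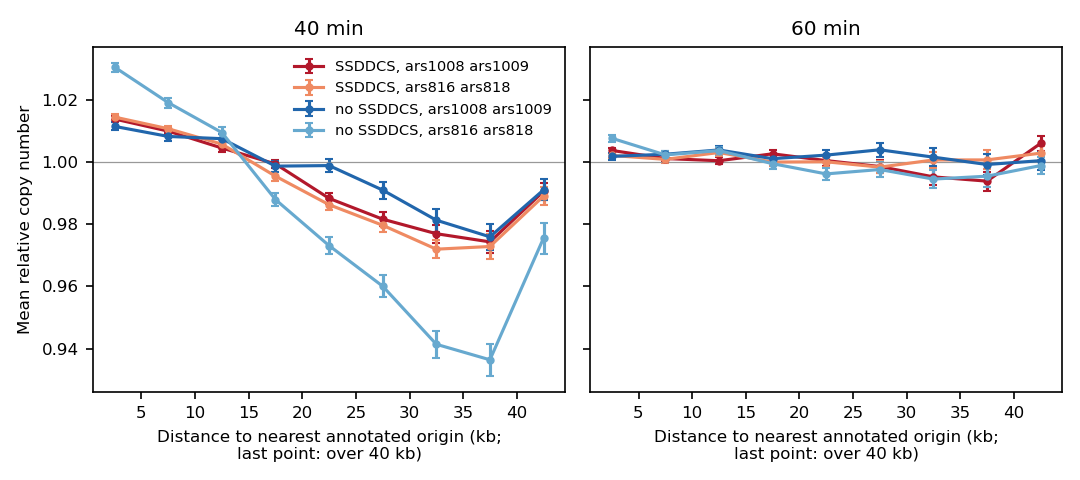
Mean relative copy number of 1-kb bins in steps of 5 kb from the nearest annotated origin, at 40 min (left) and 60 min (right), for each strain; bars are the SE over bins, which are neighbors and not replicates, and the last point pools all bins over 40 kb away. At 40 min the step from 35 to 40 kb stands at 0.936 in the sml1Δ ARS816/ARS818 strain and at 0.973 to 0.976 in the others, and at 60 min it is nearly flat.

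Centromeres and chromosome ends, known as early and late DNA, were read in the same way. Bins within 10 kb of a centromere (314 bins) averaged 1.02 in both SSDDCS strains at 40 min, against 1.03 and 1.09 in the sml1Δ ARS1008/ARS1009 and ARS816/ARS818 strains. The relative copy number of centromeric DNA was lower in both SSDDCS strains than in both sml1Δ strains at each of the 4 late times (difference -0.0460 at 40 min and -0.0102 at 60 min, exact permutation p = 0.333 each, two-sided). Most of the difference came from the ARS816/ARS818 pair, with -0.0742 at 40 min and -0.0188 at 60 min, against -0.0178 and -0.00159 in the ARS1008/ARS1009 pair. At 60 min the means were 0.9996 and 1.0004 in SSDDCS, against 1.001 and 1.019 in sml1Δ. This class also differed at 5 min, by -0.00494, and by -0.00195 within the ARS1008/ARS1009 pair. Bins within 20 kb of an end averaged 0.994 and 1.01 in SSDDCS, against 0.974 and 1.01 in sml1Δ at 40 min (exact permutation p = 1, two-sided), and held 1 and 0 low bins in SSDDCS, against 17 and 6 in sml1Δ. Of these end bins 5.86% were low in the sml1Δ ARS1008/ARS1009 strain, against 0.519% of all its bins outside the target regions. In the sml1Δ ARS816/ARS818 strain 2.08% were, below the 5.85% of all its bins. In SSDDCS 0.341% and 0% were, against 0.155% and 0.146% of all bins. The low ends belonged mainly to the sml1Δ ARS1008/ARS1009 strain, in which 6 of the 10 low loci lay within 50 kb of an end. In the sml1Δ ARS816/ARS818 strain 3 of 63 did, and in the SSDDCS strains 0 of 3 and 0 of 2. Of the 11007 bins outside the target regions 905 lay 20 to 50 kb from an end, and fewer lay closer to one. Against the share of these end bins together, 6 of 10 loci is high and 3 of 63 is low. Neither was tested. The 3 and 2 loci of SSDDCS are too few to show that ends were spared. By count, low bins of the sml1Δ ARS816/ARS818 strain were most frequent on chromosome IV (162 of 1444 bins, 11.2%) and on chromosome XV (100 bins). The share over all bins outside the target regions was 5.85% in that strain. On chromosomes II and VII, with 777 and 1036 bins, 9.40% and 8.40% were low, so the counts partly follow chromosome size.

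When the 2 sml1Δ strains were averaged, 17 low loci of 3 to 24 kb (median 5 kb, 128 bins) remained outside the target regions at 40 min, and when the 2 SSDDCS strains were averaged 1 locus of 5 kb remained. The 17 loci were defined by the sml1Δ values, so their low level in those strains is a description. They lay in gaps between annotated origins with a median of 87.2 kb. The median gap in the genome is 30.3 kb, but it counts each gap once, and wide gaps hold more bins, so the 2 medians are not alike. In 12 of the 17 loci the lowest bin stood in the middle one of 3 equal parts of its gap. By width that part is 1 in 3 of every gap, and the share of bins with values there was not counted. Their lowest bins were a median of 29.3 kb from an origin, against 10.8 kb for all bins, and their median GC content was 37.3%, against 38.2% for all bins. They hold the midpoints of 72 genes. An exception was chrVI:267001-270000, which lies within 1 kb of the end of the chromosome and in an origin gap of 13.4 kb.

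The widest was chrXIII:711001-735000, in the 109-kb gap between ARS1325 and ARS1327. It holds MRE11, a nuclease subunit of the complex that processes DNA double-strand breaks, TAF7, a subunit of the general transcription factor TFIID, the mitochondrial ribosomal protein gene MRPL44, and ORA1. At 40, 45, 50 and 60 min its mean was 0.95, 0.974, 1.00 and 0.997 in the SSDDCS ARS1008/ARS1009 strain and 0.945, 0.968, 0.986 and 1.01 in the SSDDCS ARS816/ARS818 strain. It was 0.919, 0.951, 0.985 and 1.00 in the sml1Δ ARS1008/ARS1009 strain and 0.838, 0.914, 0.939 and 0.986 in the sml1Δ ARS816/ARS818 strain. All strains were under 1 here at 40 min and the SSDDCS strains lay above both sml1Δ strains.

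The next widest, chrVII:1024001-1046000, lies between ARS735 and ARS736 and holds YTA7, a chromatin-bound AAA ATPase, SLH1, an RNA helicase that acts on stalled ribosomes, FOL2, which makes the first step of folate synthesis, and HUA1. Its mean was 0.987, 0.997, 1.01 and 1.01 over the 4 times in the SSDDCS ARS1008/ARS1009 strain and 0.975, 0.985, 0.995 and 1.00 in the SSDDCS ARS816/ARS818 strain, against 0.907, 0.954, 0.972 and 0.991 in the sml1Δ ARS1008/ARS1009 strain and 0.849, 0.887, 0.949 and 0.972 in the sml1Δ ARS816/ARS818 strain. Here the SSDDCS strains were within 0.03 of the genome average throughout, and both sml1Δ strains lay lower than both of them at each time.

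On chromosome XII a pair of loci shared the 94.5-kb gap between ARS1226 and ARS1238. The first, chrXII:842001-854000, holds ADE13, the adenylosuccinate lyase of purine synthesis, the phosphatase gene DCR2, VPS38 of vacuolar protein sorting, and YLR361C-A. It read 0.975, 0.974, 0.979 and 1.00 in the SSDDCS ARS1008/ARS1009 strain and 0.968, 1.00, 0.987 and 0.994 in the SSDDCS ARS816/ARS818 strain, against 0.90, 0.981, 0.976 and 0.978 in the sml1Δ ARS1008/ARS1009 strain and 0.828, 0.912, 0.953 and 0.966 in the sml1Δ ARS816/ARS818 strain. The second, chrXII:855001-863000, holds SSQ1, a mitochondrial chaperone of iron-sulfur cluster assembly, MDM30, an F-box protein needed for mitochondrial fusion, ARC18 of the actin-nucleating Arp2/3 complex, and RPS22B of the small ribosomal subunit. At 40 min it read 0.910 and 0.966 in the SSDDCS strains, against 0.943 and 0.820 in the sml1Δ strains, so the statuses overlapped there. At 60 min it read 0.970 and 1.00 in SSDDCS, against 0.994 and 0.963 in sml1Δ.

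A locus chosen after its values were seen, chrIV:833001-840000, was under 0.95 in all 4 strains at 40 min. It holds SLY1, which acts in vesicle fusion at the Golgi, CCT6, a subunit of the cytosolic chaperonin, and SND1, which acts in targeting proteins to the endoplasmic reticulum. Its mean at 40 min was 0.925 in both SSDDCS strains, against 0.902 and 0.822 in the sml1Δ ARS1008/ARS1009 and ARS816/ARS818 strains, and at 60 min it was 0.987 and 0.986 in SSDDCS, against 0.992 and 0.979 in sml1Δ. Another locus chosen in the same way, chrXV:811001-818000, holds RPT4 of the proteasome, GCD1 of the translation factor eIF2B, the centrin gene CDC31 and HNT3. At 40 min it read 0.989 and 0.908 in the SSDDCS strains, against 0.923 and 0.821 in the sml1Δ strains, and at 60 min 0.998 and 0.975 in SSDDCS, against 0.964 and 0.965 in sml1Δ. The other loci hold, among others, CDC28, the cyclin-dependent kinase of the cell cycle (chrII:559001-563000), POL3, the catalytic subunit of DNA polymerase delta (chrIV:275001-279000), and CLB3, a mitotic cyclin (chrIV:177001-183000).

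The 1 locus that was low in the SSDDCS mean, chrIV:849001-854000, lies in the same 93.2-kb gap between ARS425 and ARS427, near its middle and 44.3 kb from the nearest origin. It holds CAB5, the last enzyme of coenzyme A synthesis, REF2, which acts in messenger RNA 3′ end formation, CBS2, a translational activator of mitochondrial cytochrome b, and RKM2, a methyltransferase of a ribosomal protein. At 40, 45, 50 and 60 min its mean was 0.872, 0.953, 0.937 and 1.01 in the SSDDCS ARS1008/ARS1009 strain and 0.880, 0.981, 0.992 and 0.999 in the SSDDCS ARS816/ARS818 strain. It was 0.980, 1.02, 1.01 and 1.03 in the sml1Δ ARS1008/ARS1009 strain and 0.817, 0.905, 0.905 and 0.982 in the sml1Δ ARS816/ARS818 strain. The SSDDCS values thus lay between those of the 2 sml1Δ strains, and the locus was low in 3 of 4 strains. As a ratio to G1, where 2 means copied in every cell, the 40 min values were 1.69 and 1.72 in SSDDCS, against 1.86 and 1.57 in sml1Δ. No other locus was low in both SSDDCS strains. In 1 SSDDCS strain each, chrX:490001-495000 (with CPR7, a cyclophilin, and RAV1, an assembly factor of the vacuolar ATPase) and chrXII:184001-189000 (with SDO1, a ribosome maturation factor, and IZH3) were low in the ARS1008/ARS1009 strain, and chrXII:175001-179000 (with MEU1, BRE2 and PML1) was low in the ARS816/ARS818 strain. Both chromosome XII loci lie in the gap between ARS1209 and ARS1210.

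**Figure D3:**
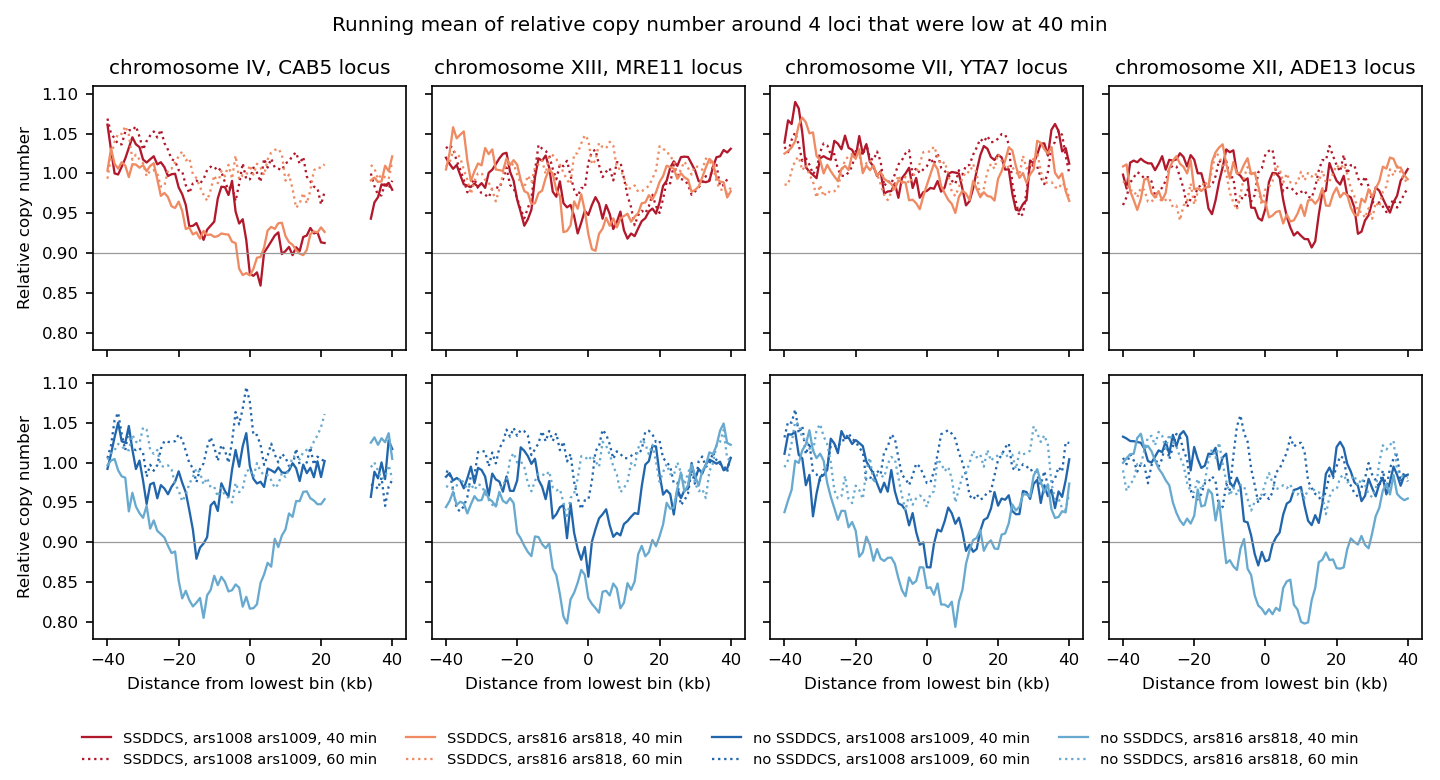
Running mean over 5 bins of relative copy number against distance in kb from the lowest bin, at 40 min (solid) and 60 min (dotted), for the SSDDCS strains (top) and the sml1Δ strains without SSDDCS (bottom) at the locus that was low in the SSDDCS mean (chromosome IV) and the 3 widest outside the target regions that were low in the sml1Δ mean; the gray line marks 0.90. The trough on chromosome IV reaches below 0.90 in both SSDDCS strains, the other 3 stay above 0.90 in them, and all troughs are shallow at 60 min. Gaps are bins with no value.

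Over the 17 loci the median of the locus means was 0.965, 0.977, 0.982 and 0.998 at 40, 45, 50 and 60 min in the SSDDCS ARS1008/ARS1009 strain and 0.953, 0.979, 0.979 and 1.00 in the SSDDCS ARS816/ARS818 strain. It was 0.917, 0.954, 0.976 and 0.979 in the sml1Δ ARS1008/ARS1009 strain and 0.832, 0.903, 0.930 and 0.979 in the sml1Δ ARS816/ARS818 strain. At 40 min 15 and 16 of the 17 loci were under 1 in the SSDDCS strains, which had no part in choosing them, and 17 of 17 in each sml1Δ strain. In both SSDDCS strains the median over all bins outside the target regions was 1.00 at 40 min, so values under 1 were common. Over the bins more than 20 kb from an origin their median was 0.985 and 0.981. The low bins in these loci numbered 0 at all 4 times in the SSDDCS ARS1008/ARS1009 strain and 2, 0, 0 and 0 in the SSDDCS ARS816/ARS818 strain. They numbered 29, 1, 0 and 0 in the sml1Δ ARS1008/ARS1009 strain and 125, 57, 12 and 0 of 128 in the sml1Δ ARS816/ARS818 strain. As ratios to G1 the medians at 40 min were 1.87 and 1.86 in SSDDCS, against 1.74 and 1.60 in sml1Δ, and at 60 min 1.99 and 2.0 in SSDDCS, against 1.95 in both sml1Δ strains.

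**Figure D4:**
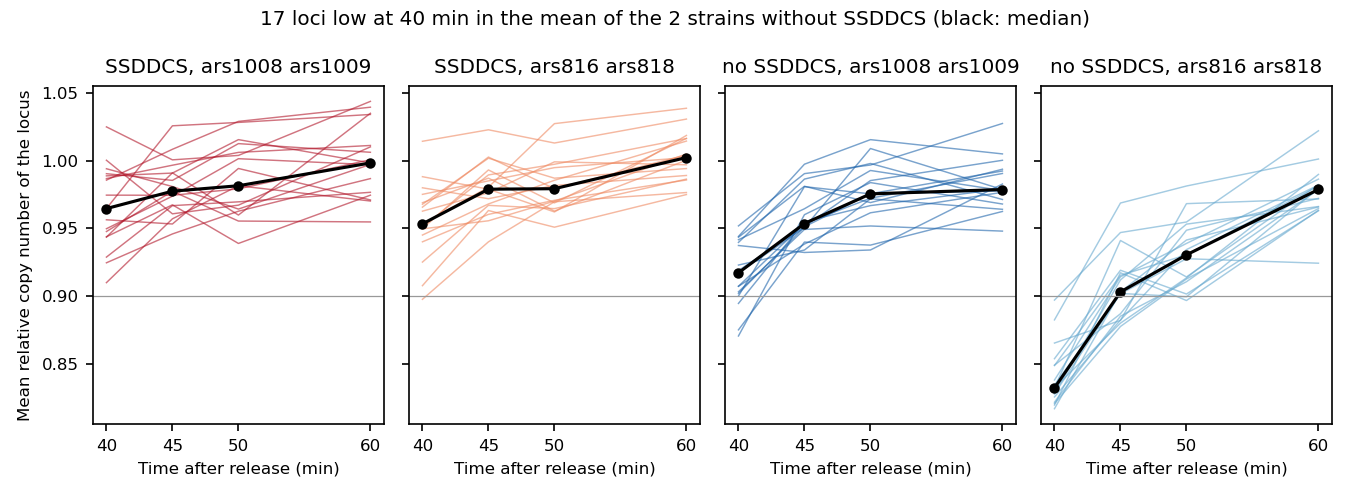
Mean relative copy number of each of the 17 loci that were low at 40 min in the mean of the sml1Δ strains, against minutes after release, 1 panel per strain; thin lines are loci, the black line is their median and the gray line marks 0.90. The lines start near 0.96 in the SSDDCS strains and near 0.92 and 0.83 in the sml1Δ strains, and end near 1 in all.

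A locus picked for a low value tends to read higher when it is measured again, so loci were chosen in 1 strain and read in the others. The 63 loci of the sml1Δ ARS816/ARS818 strain at 40 min (570 bins, own mean 0.872) read 0.973 ± 0.0302 and 0.975 ± 0.0299 in the SSDDCS ARS1008/ARS1009 and ARS816/ARS818 strains, against 0.968 ± 0.0298 in the sml1Δ ARS1008/ARS1009 strain (SD over 63 loci). At 5 min 35 and 25 of the 63 loci were under 1 in SSDDCS, against 28 in the other sml1Δ strain. At 40 min 53 and 55 of 63 were under 1 in SSDDCS, against 53 of 63 in the other sml1Δ strain. The other sml1Δ strain read slightly lower here than the SSDDCS strains, by less than the SD over loci, and the difference was not tested. The 16 loci found in the same strain at a threshold of 0.85 read 0.963 and 0.955 in the SSDDCS strains, against 0.947 in the sml1Δ ARS1008/ARS1009 strain. At 60 min the same loci read 0.996 and 0.999 in SSDDCS, against 1.00 in the sml1Δ ARS1008/ARS1009 strain and 0.975 in the strain they were chosen in. The 10 loci of the sml1Δ ARS1008/ARS1009 strain (own mean 0.879 at 40 min) read 0.972 and 0.982 in the SSDDCS strains, against 0.888 in the sml1Δ ARS816/ARS818 strain. These 10 were already below average at 5 min in the strain they were chosen in, at 0.960, and still read 0.953 there at 60 min. The 3 loci of the SSDDCS ARS1008/ARS1009 strain (own mean 0.879) read 0.914 in the SSDDCS ARS816/ARS818 strain, against 0.986 and 0.881 in the sml1Δ ARS1008/ARS1009 and ARS816/ARS818 strains. The 2 loci of the SSDDCS ARS816/ARS818 strain (own mean 0.886) read 0.897 in the SSDDCS ARS1008/ARS1009 strain, against 1.01 and 0.866 in the same sml1Δ strains. Loci chosen in SSDDCS were thus lower in the sml1Δ ARS816/ARS818 strain than in the other SSDDCS strain. By position, 3 of 3 and 1 of 2 SSDDCS loci overlapped loci of the sml1Δ ARS816/ARS818 strain, and 0 of either overlapped those of the sml1Δ ARS1008/ARS1009 strain. Of the 10 loci of the sml1Δ ARS1008/ARS1009 strain 5 overlapped loci of the sml1Δ ARS816/ARS818 strain, which are 4 of its 63.

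Single bins were tested between SSDDCS and sml1Δ with limma on log2 of the relative copy number, with Benjamini-Hochberg adjustment over all bins. With 4 strains, limma drew the variance of a bin mostly from all bins (prior degrees of freedom 83.1 in the late mean, 23.2 at 40 min). A small p thus sets a bin against the noise of bins in general, more than against its own spread over 4 strains. In the mean of the 4 late times 1 of 11299 bins was higher in SSDDCS (0.00885% of bins) and 0 were lower, while 468 were higher and 420 lower at an unadjusted p under 0.05. At 40 min 0 of 11308 bins passed in either direction (383 higher and 325 lower unadjusted), at 45 and 60 min the same 1 bin was higher (0.00884%), and at 50 min 7 were higher (0.0619%) and 1 lower (0.00884%). The count of 0 at 40 min changed when either sml1Δ strain was left out. Such a fit has 1 sml1Δ strain and takes its spread from the SSDDCS strains alone, so it cannot tell status from a single culture. The bin called in the late mean and at 45, 50 and 60 min, chrXII:459001-460000, lies in the ribosomal DNA repeat and holds RDN5-1, a 5S ribosomal RNA gene. Its late mean was 1.27 and 1.15 in the SSDDCS ARS1008/ARS1009 and ARS816/ARS818 strains, against 0.775 and 0.851 in the sml1Δ strains (log2 difference 0.58, SE 0.06, limma adjusted p = 5.22e-10). It also varied at 5 min, with 1.42 and 1.08 in SSDDCS against 1.01 and 0.799 in sml1Δ, and it is a repeat whose copies the read mapping cannot separate. The late-mean call was lost when the late value was divided by the 5 min value. Leaving out repeats removes this bin itself, so that setting could not keep the call. At 50 min the other bins called hold SMY2, ASF2, SEF1, ART10, SLX5 (the lower one) and MRL1 with TEF1, and chrI:17001-18000 was called as well. They were named after their values were seen, and 0 bins were called when the 50 min value was divided by the 5 min value.

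No bin passed in the lower direction in the late mean, and the 6 with the smallest p there were those of YNCK0010W, CLU1, PST1, SLX5, HSX1 with HIT1, and NUP192. Their log2 differences were -0.25 to -0.23 and their adjusted p by limma 0.36 to 0.368. At CLU1 the late means were 0.932 and 0.877 in SSDDCS, against 1.07 and 1.08 in sml1Δ, and the 5 min values 1.00 and 0.867 in SSDDCS, against 1.09 and 1.04 in sml1Δ. Of these 6 bins 5 lay within 10 kb of an origin, where 46.8% of all bins lie. The correlation of late and 5 min values over bins within a strain was 0.331 to 0.600 (16 pairs), and between strains -0.0777 to 0.0735 (48 pairs). Timepoints of a strain share its G1 sample as denominator, so an error of a G1 bin returns in every timepoint of that strain and was counted once, as 1 strain.

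How bins changed between 40 and 60 min was tested on the log2 ratio of the 60 min to the 40 min value in each strain. In the SSDDCS strains 0 of 11302 bins changed by limma (330 higher and 226 lower at an unadjusted p under 0.05). In the sml1Δ strains 20 bins rose relative to the genome average (0.177% of bins) and 3 fell (0.0265%). The difference between the statuses in this change, tested directly, passed in 0 bins (335 higher and 396 lower unadjusted, smallest adjusted p 0.104), so a change in sml1Δ and not in SSDDCS was not shown for any single bin. All 20 bins that rose lay over 20 kb from an origin, where 23.6% of all bins lie, at a median of 32.2 kb. They lay on 7 chromosomes, with 5 on chromosome IV, which holds 1444 bins, and 2 lay in the target regions. Both sml1Δ strains moved the same way in each, but the bins were called on the mean of these strains, so this is a description. The 3 that fell lay within 10 kb of an origin, where 46.8% of all bins lie. Without the sml1Δ ARS1008/ARS1009 strain 169 bins rose and 63 fell in sml1Δ, and without the SSDDCS ARS816/ARS818 strain 3 bins rose in SSDDCS.

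The largest rise was at TAF7 (chrXIII:723001-724000), where the log2 change was 0.35 and 0.41 in the sml1Δ strains (mean 0.38, SE 0.05, limma adjusted p = 0.00284) and 0.16 and 0.23 in the SSDDCS strains. Within the same locus RRP5 of ribosome biogenesis, and the bin shared by ERG8 of sterol synthesis and FMP42, also rose, by 0.31 and 0.30. At SRS2 (chrX:257001-258000), a DNA helicase that dismantles recombination filaments, the rise was 0.36 (SE 0.05, limma adjusted p = 0.00297). That bin lies in the IME2 region, and both sml1Δ strains showed it, at 0.40 and 0.33, beside 0.09 and 0.12 in the SSDDCS strains. YTA7 and SLH1 on chromosome VII, CCT6, DHH1, MSH5 and CBS2 with RKM2 on chromosome IV, PYC2, CSH1 and PIN4 on chromosome II and GDB1 on chromosome XVI rose by 0.26 to 0.32. At CBS2 with RKM2 the SSDDCS strains moved as far, by 0.30 and 0.19, as the sml1Δ strains did, by 0.21 and 0.32. The bins that fell were those of RDN5-1, IBD2 and YMR007W with PLB1. These genes were named after the calls were known.

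With means over 5-kb windows 0 of 2331 windows changed in SSDDCS, and in sml1Δ 64 rose (2.75% of windows) and 24 fell (1.03%) by limma. The difference between the statuses in this change passed in 0 windows (93 higher and 116 lower at an unadjusted p under 0.05, smallest adjusted p 0.0976), so a change in sml1Δ and not in SSDDCS was not shown for windows. Of the 64 that rose 50 lay over 20 kb from an origin (23.7% of all windows lie there), 0 within 30 kb of a centromere and 5 in the target regions. Of the 24 that fell 17 lay within 10 kb of an origin (46.9% of all windows) and 8 within 30 kb of a centromere (8.07% of all windows). A fall is relative to the genome average and does not mean loss of DNA. Only 14 of the windows that fell hold all 5 bins, and 61 of those that rose do. Bins at the centromere and near origins came down to the average between 40 and 60 min as the distal bins came up to it.

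The IME2 region held the lowest running means of the strains that lack its origins at 40 min, 0.737 with SSDDCS and 0.742 without, beside lowest values of 0.859 and 0.857 outside the target regions. In the IME2 region 74, 64, 46 and 0 of 179 bins were low at 40, 45, 50 and 60 min in the SSDDCS ARS1008/ARS1009 strain, against 92, 51, 11 and 0 in the sml1Δ ARS1008/ARS1009 strain. The strains that keep these origins had 0 low bins at every time with SSDDCS, and 34, 1, 0 and 0 without it. Over the 10 bins within 5 kb of IME2 (YJL106W) the relative copy number was 0.771 ± 0.0175, 0.80 ± 0.0389, 0.862 ± 0.0379 and 0.933 ± 0.0356 at the 4 times in the SSDDCS ARS1008/ARS1009 strain (SD over 10 bins). It was 0.765 ± 0.0358, 0.841 ± 0.0504, 0.907 ± 0.0630 and 0.971 ± 0.0389 in the sml1Δ ARS1008/ARS1009 strain. In the strains with the origins intact it was 1.02, 0.997, 0.989 and 0.997 with SSDDCS, against 1.09, 1.05, 1.04 and 1.02 without.

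The IME2 values of the ARS1008/ARS1009 strains were close at 40 min, and the SSDDCS value was the lower one at the 3 later times. Each time the difference was less than the SD over bins of the sml1Δ strain and more than that of the SSDDCS strain. The SD over bins describes single bins and is not the error of their mean. As a ratio to G1 it was 1.5, 1.56, 1.71 and 1.86 in the SSDDCS strain, against 1.45, 1.63, 1.78 and 1.93 in the sml1Δ strain. At 60 min 25 bins of the whole genome had a running mean below that IME2 value in the SSDDCS ARS1008/ARS1009 strain, and 1276 bins lay below the IME2 value in the sml1Δ ARS1008/ARS1009 strain. The comparison sets 1 strain against 1, so it has no replicate check and no test. Beside IME2, chrX:217001-220000 with PRM10 read 0.772, 0.801, 0.836 and 0.902 in the SSDDCS strain, against 0.764, 0.875, 0.939 and 1.00 in the sml1Δ strain. chrX:223001-240000, with the mitochondrial elongation factor gene MEF2, the small nucleolar RNA gene SNR37 and GSM1, read 0.755, 0.813, 0.877 and 0.945 in the SSDDCS strain, against 0.764, 0.854, 0.909 and 0.977 in the sml1Δ strain. chrX:245001-248000, with PHS1 of fatty acid elongation and MRPL49, read 0.801 at 40 min and 0.937 at 60 min in the SSDDCS strain, against 0.802 and 0.978 in the sml1Δ strain.

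A pair of loci in the IME2 region was low in the mean of the sml1Δ strains. chrX:233001-243000, with GSH1 of glutathione synthesis, the phosphatidylinositol kinase gene LSB6 and CHS6 of chitin synthase transport, was low in the ARS1008/ARS1009 strains alone, at 0.767 with SSDDCS and 0.748 without at 40 min. chrX:245001-277000 holds SRS2, GWT1 of glycolipid anchor synthesis, the potassium channel gene TOK1 and DPB11. At 40 min it read 0.895 and 0.960 in the SSDDCS strains, against 0.858 and 0.881 in the sml1Δ strains. It was low in the sml1Δ ARS816/ARS818 strain too, which keeps both origins. DPB11 is 1 of the 6 over-expressed genes, so in the SSDDCS strains reads at its bins come from chromosome X and from the copy integrated at trp1.

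The NDT80 region was less far behind. Low bins numbered 31, 4, 0 and 0 of 151 in the SSDDCS ARS816/ARS818 strain, against 53, 3, 1 and 0 in the sml1Δ ARS816/ARS818 strain, and 0 in both ARS1008/ARS1009 strains. Over the 10 bins within 5 kb of NDT80 (YHR124W) the relative copy number was 0.893 ± 0.0370, 0.931 ± 0.0400, 0.943 ± 0.0497 and 0.976 ± 0.0342 in the SSDDCS ARS816/ARS818 strain, against 0.869 ± 0.0595, 0.912 ± 0.0753, 0.931 ± 0.0647 and 0.972 ± 0.0620 in the sml1Δ ARS816/ARS818 strain. These differed by less than the SD over bins at each time. With the origins intact it was 1.01, 1.00, 0.979 and 1.03 with SSDDCS, against 0.964, 1.00, 1.01 and 0.984 without.

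**Figure D5:**
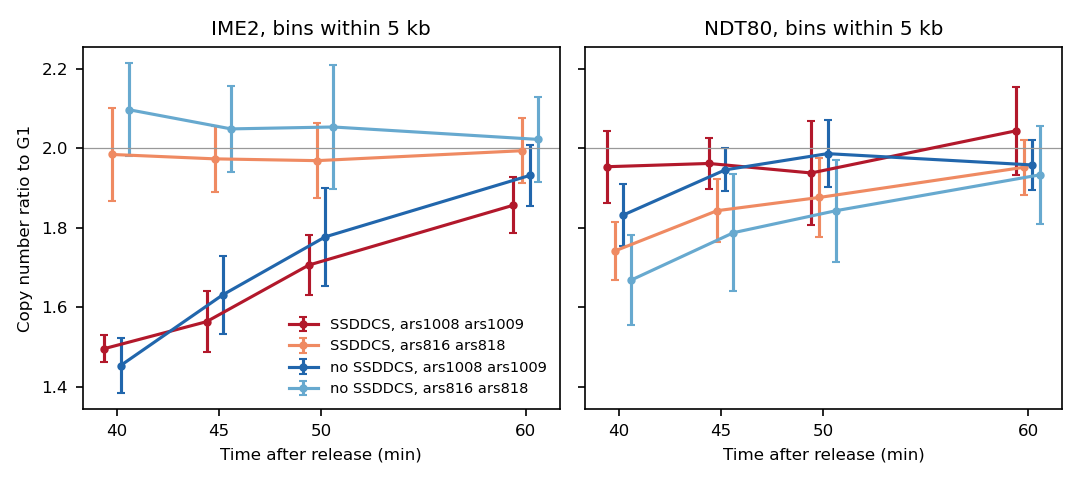
Mean copy number ratio to G1 over the 10 bins within 5 kb of IME2 (left) and NDT80 (right) against minutes after release; bars are the SD over bins, points of the 4 strains are shifted sideways for legibility, and the gray line marks 2. At 60 min IME2 stands at 1.86 in the SSDDCS ARS1008/ARS1009 strain, against 1.93 in the sml1Δ ARS1008/ARS1009 strain, and NDT80 at 1.95 in the SSDDCS ARS816/ARS818 strain, against 1.93 in the sml1Δ ARS816/ARS818 strain.

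Little was still low at 60 min. Outside the target regions the lowest running mean was 0.948 in the SSDDCS mean and 0.926 in the sml1Δ mean, and no run of 3 bins was under 0.95 in SSDDCS, against 5 in sml1Δ. Bins under 0.95 numbered 3 in the SSDDCS mean and 47 in the sml1Δ mean, which is fewer than the 13 and 60 counted in the same way at 5 min. The 5 runs were chrI:16001-19000, chrVII:448001-453000 (PIB2 and PGD1), chrXII:321001-324000 (GEP5 and XDJ1), chrXII:389001-394000 (YPS3) and chrXVI:376001-379000 (RPS6A and GLR1), and they were chosen by their 60 min values. chrI:16001-19000 read 1.01 and 1.00 in SSDDCS at 60 min, against 0.929 and 0.864 in sml1Δ, and at 5 min it read 0.985 and 0.933 in SSDDCS, against 0.981 and 0.853 in sml1Δ. chrXII:389001-394000 read 1.06 and 0.971 in SSDDCS at 60 min, against 0.926 and 0.95 in sml1Δ, and at 5 min 1.06 and 0.981 in SSDDCS, against 0.90 and 0.942 in sml1Δ. In both runs the low values at 60 min stood beside low values at 5 min in the sml1Δ ARS816/ARS818 strain, and at chrXII:389001-394000 in both sml1Δ strains. chrVII:448001-453000 was also under 0.95 in an SSDDCS strain, with 0.924 and 0.993 in SSDDCS, against 0.901 and 0.954 in sml1Δ. At 5 min it read 0.983 and 0.971 in SSDDCS, against 0.932 and 0.985 in sml1Δ. chrXII:321001-324000 read 1.05 and 0.989 in SSDDCS at 5 min, against 0.941 and 0.924 in sml1Δ. chrXVI:376001-379000 read 1.03 and 1.02 in SSDDCS at 5 min, against 0.958 and 0.971 in sml1Δ. Each of the 5 runs was thus already under 1 at 5 min in both sml1Δ strains.

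Gene families near chromosome ends, repeats, tRNA genes and histone genes were read as lists. The share of all bins outside the target regions that were low at 40 min was 0.155% and 0.146% in SSDDCS, against 0.519% and 5.85% in sml1Δ, so a count of 0 in a list of a few genes is near these shares. None of the 8 core histone genes was in a low bin in any strain at any late time. Of the 24 PAU genes 8 had a bin with values, of 12 COS genes 5, of 6 FLO genes 2 and of 17 hexose transporter (HXT) genes 8, and none of these was in a low bin at 40 or 60 min. The YRF1 and THI5 families had no bin with values and 1 of 50 Ty elements had one, so repeats were largely unread. Of 275 tRNA genes 264 had a bin, of which 2 and 1 were low at 40 min in the SSDDCS strains, against 2 and 8 in the sml1Δ strains, to be read against the shares above. HML, HMR and the MAT locus had no low bin at 40 or 60 min in any strain.

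Base composition moved with status and is given beside these results. The slope of log2 relative copy number per 10% GC was 0.00298 to 0.0305 over the late SSDDCS samples and -0.0385 to -0.00696 over the late sml1Δ samples, and at 5 min it was -0.00247 and 0.0153 in SSDDCS, against -0.0147 and -0.0336 in sml1Δ. The 50 min libraries of both SSDDCS strains had more noise between neighboring bins (0.0586 and 0.0595) than the other late SSDDCS samples (0.0472 to 0.0499). Noise between neighboring bins also moved with status: at 40 min it was 0.0492 and 0.0499 in SSDDCS, against 0.0628 and 0.0616 in sml1Δ, at 60 min 0.0484 and 0.0472, against 0.0543 and 0.0565, and at 5 min 0.0540 and 0.0495, against 0.0623 and 0.0584. The part of base composition and of noise in the spread, the low bins and the loci was not tested. Removing the GC trend left the same count of 1 bin called in the late mean.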

How the data were processed

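Copy number profiles were taken from 16 late samples, 4 strains at 40, 45, 50 and 60 min, with the 5 min sample of each strain as a baseline. The deposited values are ratios: the authors aligned reads, counted them in 1-kb bins of sacCer3, divided each timepoint by the G1 sample of that strain and scaled the result to the bulk DNA value from flow cytometry. The submitters' processing notes name Bowtie2 2.3.4, SAMtools 1.7.2 and bedtools 2.26.0. Read counts were not used here, so the depth behind a ratio is unknown and no counting interval is given. The 1 G1 sample per strain enters every timepoint of that strain as the denominator.

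Each ratio was divided by its bulk value (Python 3.11.15, numpy 2.4.6, pandas 2.3.3). Bins were tested as log2 values with limma 3.58.1 in R 4.3.3, 2 strains against 2, with Benjamini-Hochberg adjustment at 0.05 over all bins. Summaries were tested with the exact permutation test over strains, which cannot go below p = 0.333. Named loci are the 6 widest low loci of each status at 40 min (and at 60 min), the bins called in the late mean or, failing those, the 6 with the smallest p in each direction, IME2 and NDT80, with up to 4 genes nearest to the lowest bin. Genes named beside other calls were chosen after their values were seen. The loci, lists and tests were chosen with earlier results of these data known. Alternatives covered scaling, the log, GC, repeats, the 5 min value, the threshold, the smoothing, the pairing of strains and leaving out each strain. Gene and origin positions come from the RefSeq R64 annotation.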

Additional observations from a re-analysis of the deposited data

Results flagged for a closer look

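The strain pairs with the same origin deletions differed in opposite directions near and far from origins at 40 min, and the difference between the pairs was not tested. Within 5 kb of an origin SSDDCS minus no SSDDCS was 0.00238 in the ARS1008/ARS1009 pair and -0.0160 in the ARS816/ARS818 pair. Over 20 kb from an origin it was -0.00687 in the ARS1008/ARS1009 pair and 0.0194 in the ARS816/ARS818 pair. Each value sets 1 culture against 1.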

How the results depend on the processing

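Of 234 alternative values of 37 results, 161 were labelled the same, 72 moved and 1 reversed. A count or percent was the same if its total stayed within 1.5 times the main value, and the direction of called bins was not compared. Differences in spread and in position class were the same if they kept their sign, whatever their size. Values of target regions and of loci were the same if they moved by less than the SD over bins or loci. Causes were not tested. The late-mean count of called bins became 0 with repeats and the outermost 5 kb left out, with 5 min values limited to 0.8 to 1.2, and after division by the 5 min value. The first 2 settings remove the RDN5-1 bin itself, also at 45 and 60 min, so its loss there was fixed in advance. After division by the 5 min value the higher call at 45 min was lost and 1 bin was called lower. The count at 45 min became 0 with repeats left out, with the 5 min limit and with a mean-variance trend. At 60 min it became 0 with repeats left out and with the 5 min limit and 10 with means over 5 bins, none of which held all 5 bins. At 50 min it became 3 when scaled by the 75th percentile, 5 with the GC trend removed, 2 with the 5 min limit, 0 after division by the 5 min value and 3 with means over 5 bins. For the change in sml1Δ strains the 23 calls (20 higher and 3 lower) became 76 with 75th percentile scaling (73 higher and 3 lower), 11 with untransformed ratios (8 higher and 3 lower) and 88 with means over 5 bins (64 higher and 24 lower).

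Strains with the same origin deletions share a number, and their deviations from the status means correlated at 0.0237 to 0.0975 over bins, in 2 pairs, so they were not treated as paired. With the strain pair as a replicate block the counts were 2 at 40 min, 16 at 50 min and 6 for the change between statuses, and the late mean, 45 min and 60 min kept a count of 1.

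Low bins per strain at 40 min, 16.5 in SSDDCS and 349.5 in sml1Δ, became 0 and 64.5 at a threshold of 0.85, 476 and 1500.5 at 0.95, 275.5 and 933.5 in single bins, and 182.5 and 1462 with 75th percentile scaling. In SSDDCS they became 7 with a running mean over 11 bins and 36 after division by the 5 min value. Low loci of the status means, 1 in SSDDCS and 17 in sml1Δ, became 0 and 0 at 0.85, 36 and 123 at 0.95, 0 and 7 over 11 bins, and 9 and 110 with 75th percentile scaling, and 2 in SSDDCS after division by the 5 min value. At 60 min sml1Δ had 5 at 0.95. The percent of bins over 20 kb from an origin that were low at 40 min became 0 in SSDDCS and 2.47 in sml1Δ at 0.85, 14.8 and 28.6 at 0.95, 6.09 and 16.8 in single bins, 6.60 and 27.8 with 75th percentile scaling, and in SSDDCS 0.279 over 11 bins and 1.33 after division by the 5 min value.

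Leaving out each strain, with the lone strain assumed to vary like the others, gave 1 called bin in the late mean each time, 0 to 185 at 40 min, 0 to 13 at 45 min, 2 to 11 at 50 min, 1 to 3 at 60 min, 0 to 2 for the change between statuses, 0 to 3 for the change in SSDDCS and 19 to 232 for the change in sml1Δ. The highest counts at the 4 single times and for the change in sml1Δ came without the sml1Δ ARS1008/ARS1009 strain, and those for the change in SSDDCS and between statuses without the SSDDCS ARS816/ARS818 strain. Low bins were 16 to 17 in SSDDCS and 57 to 642 in sml1Δ, low loci 2 to 3 and 10 to 63, and the percent low over 20 kb from an origin 0.557 to 0.635 and 1.47 to 19.2. The SSDDCS minus sml1Δ difference in origin-distal bins at 40 min was -0.00802 without the sml1Δ ARS816/ARS818 strain, a reversal, and reached 0.0206.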
